A study of Mus musculus with 8 samples.

Results

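The 36 potassium channel genes measured on these arrays are described in cells that had left sacral neural tube explants of mouse embryos, with either Dom/Dom or wild-type Sox10. The members are all genes with a single symbol that starts with Kcn, 36 of the 6855 genes tested, and each had 1 probe set. They comprise 9 voltage-gated pore subunits, 4 modifier subunits of voltage-gated channels, 7 inward rectifiers, 6 channels of the 2-pore family, 2 calcium- or sodium-activated subunits, 6 auxiliary subunits or regulators, and 2 antisense RNAs named after Kcnmb4 that are not channels. The table used here holds part of the array, so other Kcn genes were not analysed here. Of the 6855 genes tested, 6707 lie on chromosomes 1 and 10 to 16, which also limits the marker and pathway lists below. One group carried the Dom allele of Sox10 on both copies, a frameshift allele of a transcription factor of neural crest cells, and the other was wild type, with 4 arrays each. Embryos of both groups were at embryonic day 9.5, the neural tube caudal to somite 24 was cultured in DMEM/F12 with 10% FBS, and RNA of the emigrated cells was taken after 24 hours. Whether each replicate was its own embryo or litter is not labelled. The p-values therefore measure only how far these samples spread, and part of that spread may be technical. The cells were not sorted.

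Potassium channels let potassium ions leave or enter the cell down their gradient and so set the resting potential and end electrical excitation. Voltage-gated channels open on depolarization, inward rectifiers pass current more easily into the cell, 2-pore channels leak at rest, and a further class opens with intracellular calcium or sodium. Auxiliary subunits form no pore and change the gating or the surface level of the channels they bind. In neural crest derivatives, neurons, glia, melanocytes and smooth muscle each use different sets of these genes.

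All 7 measured neural crest markers (Ngfr, Pax3, Snai2, Sox10, Sox9, Tfap2a and Tfap2b) lay above 8.23 log2 units, the reference for a dim signal that is also used for the channels. Sox10 itself averaged 11.69 ± 0.18 log2 units in wild-type arrays and 10.50 ± 0.40 in the mutants (SD, n = 4), with a limma adjusted p of 0.0168. A frameshift leaves a transcript that probes can still read, so this does not check the labels. The mean level of the 7 markers was 11.44 to 11.59 per array in Dom/Dom against 11.78 to 11.98 in wild type, and its pairs differed by -0.46, -0.18, -0.47 and -0.41. Of the 7, 3 had a difference above 0 (Sox9 0.09, Pax3 0.05 and Tfap2b 0.02) and 4 below. Sox10 fell without the block, and Sox10 and Tfap2a (-0.50, limma adjusted p = 0.108, or 0.0418 once blocked) fell with it. Ngfr differed by -0.95 (adjusted p = 0.267, or 0.145 blocked) and Snai2 by -0.19. The part of this in the levels of the channel genes was not tested. Array medians lay between 8.60 and 8.78.

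Of the 36 genes, 0 passed the test of genotype (limma, Benjamini-Hochberg adjusted p under 0.05, no replicate term), and 1 fell, Kcnk5, when the replicate number was added as a block. Over all genes tested the shares called were 0.481% without the block (0.0729% higher and 0.408% lower in Dom/Dom) and 1.5% with it (0.452% higher and 1.05% lower). At an unadjusted p under 0.05, 6 members passed without the block, where 6.11% of all genes did, and 10 passed with it, where 13.9% did. The genotypes did not overlap in 5 members (Kcnk5, Kcnmb4, Kcnmb1, Kcnq5 and Kcnt2), against 3.78% of all genes tested. Of these, 3 were higher in Dom/Dom and 2 lower, against 1.18% and 2.6% of all genes. Most members differed little: 32 of 36 differences were smaller than 0.25 log2 units, as were 93.4% of all genes. The median difference, Dom/Dom minus wild type, was -0.02 over the members and -0.001 over all genes, with 14 members above 0 and 22 below. After quantile normalization 9 were above and 27 below, and the 5 that changed sign (Kcne4, Kcnj10, Kcnj13, Kcnj16 and Kcns3) differed by at most 0.04.

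**Figure D1:**
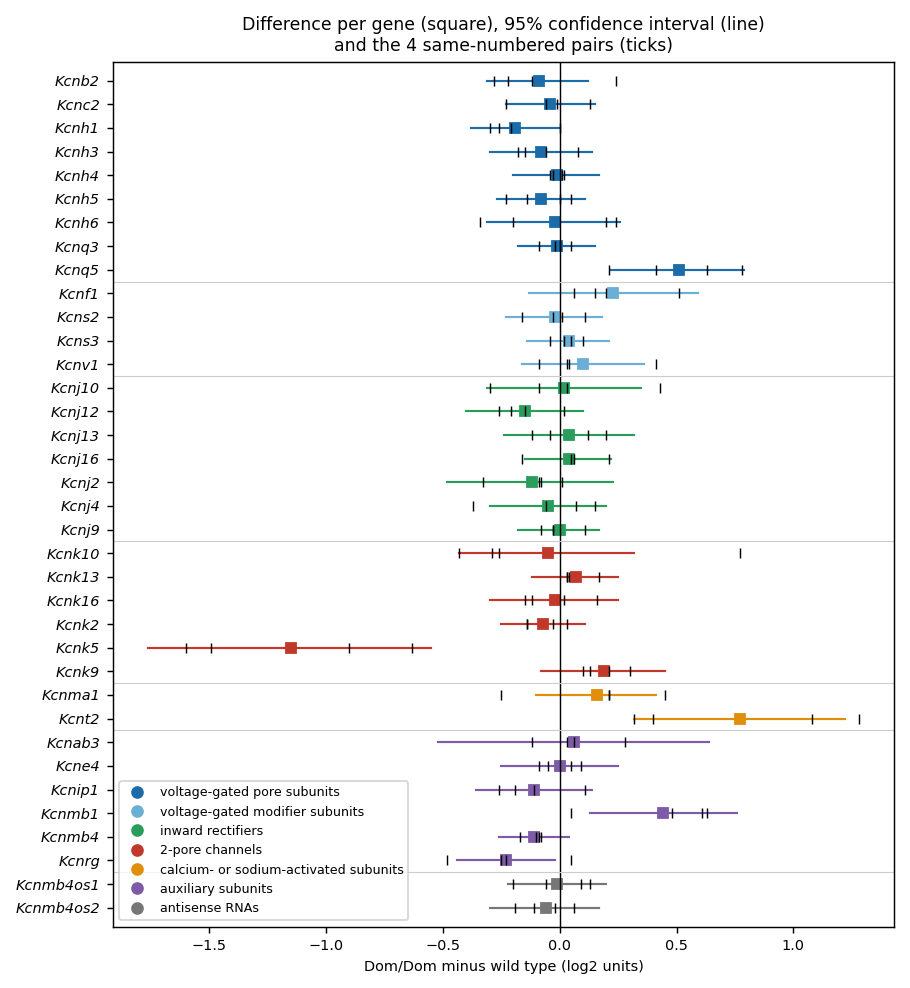
Difference between genotypes for each of the 36 genes, in log2 units (x axis), Dom/Dom minus wild type; squares are the difference, lines its 95% confidence interval from limma, and ticks the 4 same-numbered pairs of arrays. Kcnk5 lies at -1.15, and Kcnt2, Kcnq5 and Kcnmb1 lie at 0.77, 0.51 and 0.44, while every other member lies between -0.23 and 0.23.

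Levels on these arrays depend on the probes of each probe set and are not compared between genes. As a reference for a dim signal, the 213 olfactory receptor genes of the table were used, which are known for expression in olfactory neurons. The 95th percentile of their wild-type means was 8.23 log2 units, and the highest of them was 9.66. Of the members, 17 had a wild-type mean above it and 19 did not, whereas 66.5% of all genes tested lay above. A member at or below this level was not distinguishable from such a signal here. The 4 differences of at least 0.25 all lay among the 17 members above it, and the 19 others differed by -0.23 to 0.23. Array values of this kind understate differences of dim probe sets, and the same split was not made over all genes.

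**Figure D2:**
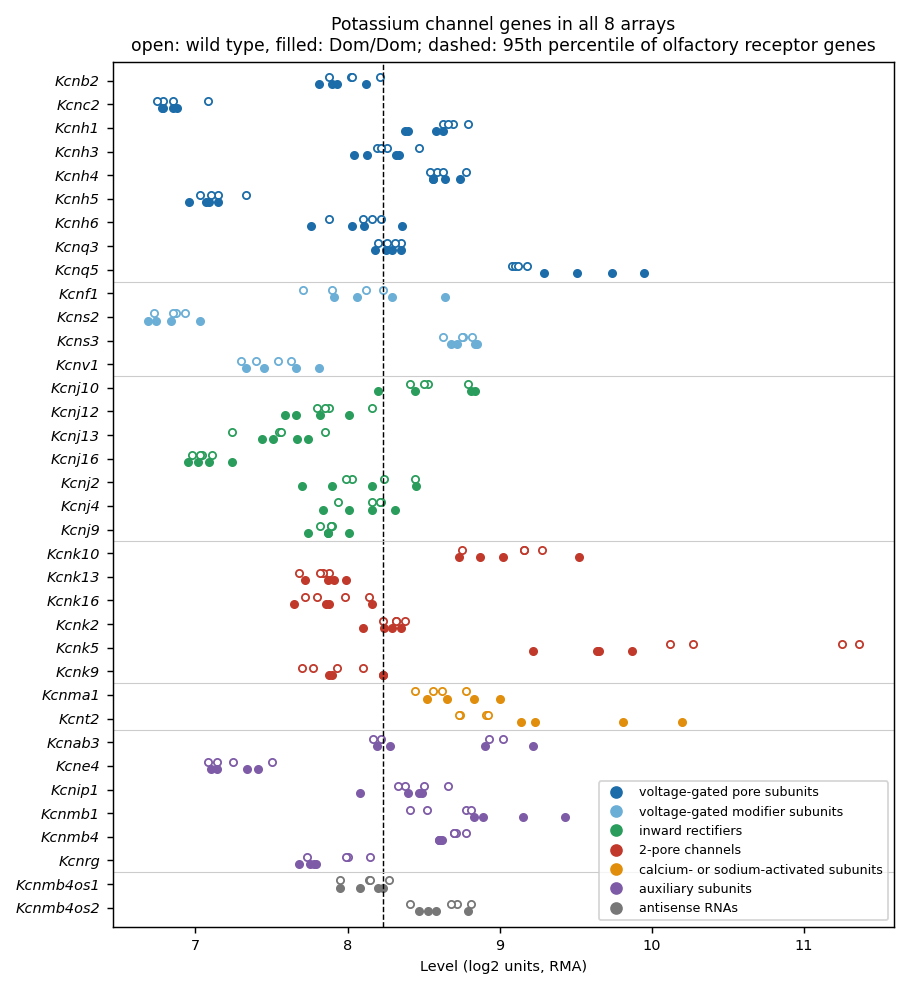
Level of each potassium channel gene in log2 units (x axis), with 1 point per array, open for wild type and filled for Dom/Dom, in rows grouped and coloured by channel class. The dashed line is the 95th percentile of the wild-type means of olfactory receptor genes, 8.23, which 17 of the 36 genes exceeded in wild type.

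Among the 2-pore channels, Kcnk5 had the largest difference of all members. It encodes a leak channel that opens at alkaline extracellular pH. Kcnk5 stood at 10.12, 10.27, 11.25 and 11.36 log2 units in wild-type replicates 1 to 4 and at 9.22, 9.64, 9.65 and 9.87 in Dom/Dom replicates 1 to 4. All 4 Dom/Dom arrays lay below all 4 wild-type arrays, and wild-type replicates 3 and 4 lay about 1 unit above wild-type replicates 1 and 2. The means were 9.59 ± 0.27 and 10.75 ± 0.65 (SD, n = 4), a 2.23-fold lower level in Dom/Dom (difference -1.15, SE 0.27, limma adjusted p = 0.14 without the block). With the replicate block the SE was 0.16 and Kcnk5 fell (adjusted p = 0.0286), but not in the blocked fit without replicate 3 (adjusted p = 0.127) or without replicate 4 (0.189). The same-numbered pairs differed by -0.90, -0.63, -1.60 and -1.49.

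In fits of 2 arrays per genotype, Kcnk5 differed by -0.77 within replicates 1 and 2 (limma adjusted p = 0.538) and by -1.54 within replicates 3 and 4 (0.000336). The split was made after seeing the data, and whether these differences differ from each other was not tested. Of all genes tested, 0.0584% and 5.13% were called in these fits, and 0 and 4 members were. A block for replicates 1 and 2 against 3 and 4 called 3 members, Kcnk5, Kcnq5 and Kcnt2, where 1.69% of all genes were called. In Dom/Dom the glial and Schwann cell precursor markers were lower beside Kcnk5: of 8 measured, 6 fell without the block and 5 with it, and their mean level was 9.51 to 9.72 per array against 10.58 to 11.12 in wild type. The 2 that did not pass were S100b, which lay at or below the reference level, and Fabp7, at 13.99 ± 0.14 (Dom/Dom) and 14.07 ± 0.12 (wild type; SD, n = 4; difference -0.08, limma adjusted p = 1.00). Of 3 melanocyte markers 2 fell, with a mean level of 8.03 to 8.38 against 9.25 to 9.88, and Slc45a2 lay at or below the reference. The part of these cells in the level of Kcnk5 was not tested. In bulk samples, fewer cells of a type and less RNA per cell cannot be told apart.

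The gene next to Kcnk5 on chromosome 14, Kcnk16, encodes another 2-pore channel, known from the pancreas. It differed by -0.02 with a 95% confidence interval of -0.30 to 0.25, and its wild-type mean of 7.91 was not above the reference. The promoter of Kcnk5 is shown because this gene gave the one call among the members. It covers 250 bases before to 50 bases after the start in RefSeq (chr14:20181733-20182032, minus strand, GRCm38.p6), and holds neither ACAAAG nor ACAATG, the letters of SOX-type motifs, on either strand.
Kcnk5: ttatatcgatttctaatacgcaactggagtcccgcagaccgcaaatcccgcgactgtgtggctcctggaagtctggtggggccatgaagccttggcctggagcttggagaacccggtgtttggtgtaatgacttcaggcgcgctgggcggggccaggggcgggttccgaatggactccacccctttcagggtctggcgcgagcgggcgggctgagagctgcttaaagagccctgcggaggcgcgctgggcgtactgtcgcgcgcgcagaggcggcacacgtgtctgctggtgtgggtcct

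The stretch-sensitive leak channels Kcnk2 and Kcnk10 were the other 2-pore genes above the reference. Kcnk10 stood at 8.75, 9.28, 9.16 and 9.16 in wild-type replicates 1 to 4 and at 9.52, 9.02, 8.73 and 8.87 in Dom/Dom. Dom/Dom replicate 1 was the highest of the 8 arrays, and in the other 3 pairs Dom/Dom was the lower, so the genotypes overlapped. Its pairs differed by 0.77, -0.26, -0.43 and -0.29, and its means were 9.04 ± 0.34 (Dom/Dom) and 9.09 ± 0.23 (wild type; SD, n = 4; limma adjusted p = 1.00). In the blocked fit without replicate 1 the difference was -0.32 (adjusted p = 0.0262). That fit called 475 of the 6855 genes tested, against 103 with all pairs. Kcnk10 did not pass in the blocked fits without replicate 2, 3 or 4 (adjusted p = 0.983, 0.967 and 0.99). The mean of the neuronal markers also ran opposite in pair 1, at 0.28 over 9 genes against -0.40, -0.46 and -0.45 in pairs 2 to 4. Not each marker did so. In pair 1 Pou4f1, Prph and Nefh were lower in Dom/Dom and the others higher. Syt1 was also higher in pairs 3 and 4, and Prph and Nefh were higher in pair 2. The part of neurons in Kcnk10 was not tested. For Kcnk2 the means were 8.24 ± 0.11 (Dom/Dom) and 8.31 ± 0.06 (wild type; SD, n = 4).

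Kcnk9, an acid-sensitive leak channel, and Kcnk13, which is inhibited by halothane, lay at or below the reference. Both were higher in Dom/Dom in 4 of 4 pairs, by 0.10 to 0.30 for Kcnk9 and by 0.03 to 0.17 for Kcnk13. A same sign in 4 of 4 pairs was found for 21.1% of all genes tested and for 8 of the 36 members.

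Of the calcium- or sodium-activated subunits, Kcnt2 had the largest positive difference of the family. It encodes a channel opened by intracellular sodium. Kcnt2 stood at 8.74, 8.91, 8.73 and 8.92 in wild-type replicates 1 to 4 and at 9.14, 9.23, 9.81 and 10.20 in Dom/Dom. The genotypes did not overlap, the wild-type arrays lay close together, and Dom/Dom replicates 3 and 4 were the highest. The Dom/Dom mean of 9.60 ± 0.50 compared with 8.83 ± 0.10 for wild type (SD, n = 4), 1.70-fold higher (difference 0.77, SE 0.20, 95% confidence interval 0.32 to 1.22). Kcnt2 did not pass without the block (limma adjusted p = 0.201) or with it (0.0962). It did in the blocked fit without replicate 1 (difference 0.89, adjusted p = 0.0343), which called 475 of the 6855 genes tested against 103 with all pairs. It did not in the blocked fits without replicate 2, 3 or 4 (adjusted p = 0.0798, 0.469 and 0.39).

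Within replicates 1 and 2, Kcnt2 differed by 0.36 (limma adjusted p = 1.00), and within replicates 3 and 4 by 1.18 (0.00477). This split was made after seeing the data, and the 2 fits called 0.0584% and 5.13% of all genes tested. The pairs differed by 0.40, 0.32, 1.08 and 1.28. Its promoter (chr1:140245468-140245767, plus strand) is shown with the SOX-type letters in capitals, here CATTGT, which is ACAATG read on the opposite strand and begins 88 bases before the start.
Kcnt2: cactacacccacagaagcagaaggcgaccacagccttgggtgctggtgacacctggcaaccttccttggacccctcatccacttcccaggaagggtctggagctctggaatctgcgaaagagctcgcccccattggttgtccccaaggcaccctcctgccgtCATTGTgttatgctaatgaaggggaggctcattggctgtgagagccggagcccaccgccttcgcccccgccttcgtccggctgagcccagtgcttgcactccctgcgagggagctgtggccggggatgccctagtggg

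Kcnma1, the large-conductance channel opened by calcium and voltage, averaged 8.60 ± 0.14 in wild-type and 8.75 ± 0.21 in Dom/Dom arrays (SD, n = 4). Its pairs differed by 0.45, -0.25, 0.21 and 0.21, and the genotypes overlapped (difference 0.16, 95% confidence interval -0.10 to 0.41).

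**Figure D3:**
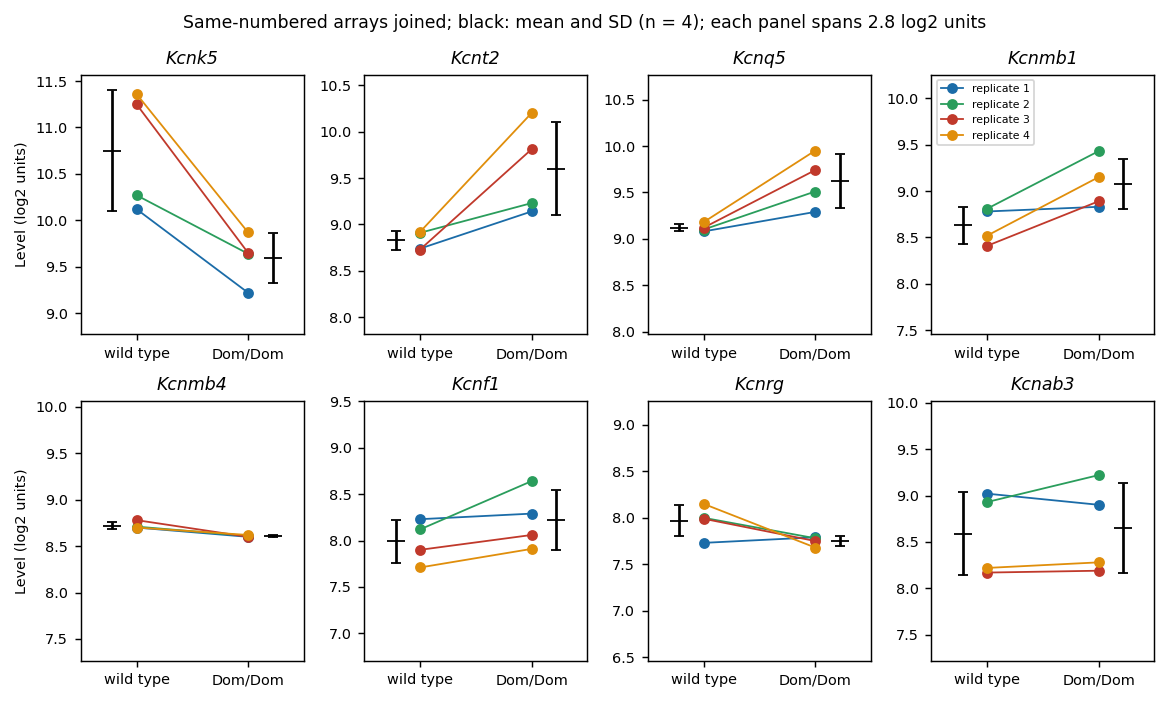
Levels in log2 units (y axis, 2.8 units in each panel) of 8 potassium channel genes in wild type and Dom/Dom, with same-numbered arrays joined by a line and coloured by replicate; black marks are the mean and SD of 4 arrays. Lines slope down in 4 of 4 pairs for Kcnk5 and Kcnmb4 and up in 4 of 4 for Kcnt2, Kcnq5, Kcnmb1 and Kcnf1, and Kcnab3 separates replicates 1 and 2 from 3 and 4 in both genotypes.

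Voltage-gated pore subunits were represented by Kcnb2, Kcnc2, Kcnh1, Kcnh3, Kcnh4, Kcnh5, Kcnh6, Kcnq3 and Kcnq5. Their differences had a median of -0.04, with 1 above 0 and 8 below. The one above 0 was Kcnq5, whose channel carries a slow current that damps repeated firing. Kcnq5 stood at 9.08, 9.10, 9.12 and 9.18 in wild-type replicates 1 to 4 and at 9.29, 9.51, 9.74 and 9.95 in Dom/Dom. The wild-type arrays spanned a narrow range, and all 4 Dom/Dom arrays lay above it. The means were 9.62 ± 0.29 and 9.12 ± 0.04 (SD, n = 4), 1.42-fold higher in Dom/Dom (difference 0.51, SE 0.13). Kcnq5 did not pass without the block (limma adjusted p = 0.174) or with it (0.0637).

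Without Dom/Dom replicate 1, Kcnq5 differed by 0.62 and passed (limma adjusted p = 0.0372), as in the blocked fit without replicate 1 (0.60, adjusted p = 0.0108). The latter called 475 of the 6855 genes tested, against 103 with all pairs. Kcnq5 did not pass with any other single array left out (adjusted p = 0.24 to 0.517). Nor did it in the blocked fits without replicate 2, 3 or 4 (adjusted p = 0.108, 0.345 and 0.301). Within replicates 1 and 2 the difference was 0.31 (adjusted p = 1.00), and within replicates 3 and 4 it was 0.70 (0.0091). This split was made after seeing the data, and the 2 fits called 0.0584% and 5.13% of all genes tested. Kcnq3, which encodes a partner subunit for the same kind of current, stood at 8.27 ± 0.07 and 8.28 ± 0.06 (SD, n = 4), a difference of -0.01 with a 95% confidence interval of -0.18 to 0.15.

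RefSeq lists 2 promoters for Kcnq5 on the minus strand of chromosome 1. The upstream one (chr1:21962601-21962900) holds CATTGT 11 bases before its start, in capitals, and the downstream one (chr1:21961893-21962192) holds none of the SOX-type letters.
Kcnq5 upstream: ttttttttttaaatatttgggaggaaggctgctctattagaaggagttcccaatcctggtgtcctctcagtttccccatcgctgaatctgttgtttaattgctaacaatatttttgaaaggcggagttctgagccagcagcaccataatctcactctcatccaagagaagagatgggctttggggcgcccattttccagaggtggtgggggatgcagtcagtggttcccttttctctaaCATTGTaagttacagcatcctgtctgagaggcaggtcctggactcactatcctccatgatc
Kcnq5 downstream: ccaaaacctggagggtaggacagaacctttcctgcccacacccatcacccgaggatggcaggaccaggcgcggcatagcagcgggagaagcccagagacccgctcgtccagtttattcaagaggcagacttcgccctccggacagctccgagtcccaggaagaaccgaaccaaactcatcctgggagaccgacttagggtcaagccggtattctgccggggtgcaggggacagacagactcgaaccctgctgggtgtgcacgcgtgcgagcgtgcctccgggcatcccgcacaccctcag

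Within the ether-a-go-go family of voltage-gated channels, Kcnh1, Kcnh3 and Kcnh4 lay above the reference and Kcnh5 and Kcnh6 did not. Kcnh1 stood at 8.63, 8.79, 8.69 and 8.66 in wild-type replicates 1 to 4 and at 8.63, 8.58, 8.38 and 8.40 in Dom/Dom. The genotypes met at replicate 1, and the other 3 pairs differed by -0.21, -0.30 and -0.26. The means were 8.50 ± 0.13 (Dom/Dom) and 8.69 ± 0.07 (wild type; SD, n = 4), a difference of -0.19 (SE 0.09, limma adjusted p = 0.796; 0.246 once blocked by replicate). Blocked and without replicate 1 it was -0.26 (adjusted p = 0.0394). Kcnh1 did not pass in the blocked fits without replicate 2, 3 or 4 (adjusted p = 0.346, 0.769 and 0.744). The other Kcnh genes differed by -0.08 to -0.01, with Dom/Dom and wild-type means of 8.21 ± 0.15 and 8.29 ± 0.12 for Kcnh3 and of 8.62 ± 0.08 and 8.64 ± 0.10 for Kcnh4 (SD, n = 4). Kcnb2, a delayed rectifier, and Kcnc2, a channel of fast-firing neurons, lay at or below the reference and differed by -0.09 and -0.04.

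The modifier subunits Kcnf1, Kcns2, Kcns3 and Kcnv1 form no working channel alone and change channels of the Kcnb group. Kcnf1 stood at 8.23, 8.12, 7.90 and 7.71 in wild-type replicates 1 to 4 and at 8.29, 8.64, 8.06 and 7.91 in Dom/Dom. It was higher in Dom/Dom in each pair, by 0.06, 0.51, 0.15 and 0.20, although the genotypes overlapped. The mean difference was 0.23 (SE 0.16, limma adjusted p = 1.00; SE 0.08 and 0.266 once blocked by replicate), and the wild-type mean of 7.99 was not above the reference. Kcns3 was the modifier above it, with means of 8.77 ± 0.08 (Dom/Dom) and 8.74 ± 0.08 (wild type; SD, n = 4). Kcns2 and Kcnv1 differed by -0.02 and 0.10.

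The 7 inward rectifiers differed by -0.15 to 0.04. Of these, Kcnj10 alone had a wild-type mean above the reference. It encodes the channel with which glia take up potassium, and stood at 8.41, 8.79, 8.53 and 8.50 in wild-type replicates 1 to 4 and at 8.84, 8.81, 8.44 and 8.20 in Dom/Dom. Replicates 1 and 2 were the high Dom/Dom arrays and the genotypes overlapped, with means of 8.57 ± 0.31 and 8.56 ± 0.16 (SD, n = 4) that differed by 0.02 (95% confidence interval -0.31 to 0.35). Its pairs differed by 0.43, 0.03, -0.09 and -0.30, beside mean differences of the glial markers of -1.16, -0.89, -1.52 and -1.40. Kcnj9, its neighbour on chromosome 1 and a subunit of channels opened by G proteins, differed by -0.00 (95% confidence interval -0.18 to 0.17).

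Kcnj2, which sets the resting potential of muscle cells, stood at 8.03, 7.99, 8.24 and 8.44 in wild-type replicates 1 to 4 and at 7.70, 7.90, 8.16 and 8.45 in Dom/Dom. Replicates 3 and 4 were the higher in both genotypes, which overlapped (difference -0.12, limma adjusted p = 1.00; 0.475 once blocked). Kcnj16, next to Kcnj2 on chromosome 11, encodes a partner of the Kcnj10 channel and differed by 0.04. The strong rectifiers Kcnj4 and Kcnj12 differed by -0.05 and -0.15, the latter the largest of the class with means of 7.77 ± 0.18 (Dom/Dom) and 7.92 ± 0.16 (wild type; SD, n = 4), and Kcnj13, a channel of transporting epithelia, by 0.04.

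Of the auxiliary genes, Kcnmb1 and Kcnmb4 had genotypes that did not overlap, in opposite directions. Both encode beta subunits of the large-conductance channel formed by Kcnma1, Kcnmb1 the form of smooth muscle and Kcnmb4 that of neurons. Kcnmb1 stood at 8.78, 8.81, 8.41 and 8.52 in wild-type replicates 1 to 4 and at 8.83, 9.43, 8.89 and 9.15 in Dom/Dom. The lowest Dom/Dom array lay just above the highest wild-type array, and pair 1 differed by 0.05 against 0.61, 0.48 and 0.63 in pairs 2 to 4. The means were 9.08 ± 0.27 and 8.63 ± 0.20 (SD, n = 4), 1.36-fold higher in Dom/Dom (difference 0.44, SE 0.14, limma adjusted p = 0.393; 0.11 once blocked by replicate).

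In the blocked fit without replicate 1, Kcnmb1 differed by 0.58 (limma adjusted p = 0.00467). That fit called 475 of the 6855 genes tested, against 103 with all pairs. Kcnmb1 did not pass in the blocked fits without replicate 2, 3 or 4 (adjusted p = 0.215, 0.489 and 0.511). Within replicates 1 and 2 it differed by 0.33 (adjusted p = 1.00), and within replicates 3 and 4 by 0.56 (0.0312). This split was made after seeing the data, and the 2 fits called 0.0584% and 5.13% of all genes tested. Of the smooth muscle markers 4 of 4 measured had a mean difference above 0 and 0 passed the test, with mean differences of -0.03, 0.52, 0.32 and 0.36 in pairs 1 to 4 and a mean level of 9.93 to 10.12 in Dom/Dom against 9.59 to 9.96 in wild type, and 0 of 4 lay at or below the reference. Among them Myocd, a coactivator of smooth muscle genes, had a difference of 0.63 (adjusted p = 0.353, or 0.0507 blocked) and Des, which encodes desmin, one of 0.36 (0.371, or 0.235 blocked). The skeletal muscle precursor markers, 4 measured, had mean differences of -0.02, 0.39, 0.26 and 0.43 in the same pairs. The part of smooth or skeletal muscle cells in Kcnmb1 was not tested.

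Kcnip1, the next gene to Kcnmb1 on chromosome 11, encodes a calcium-binding partner of voltage-gated channels. Its means were 8.36 ± 0.19 (Dom/Dom) and 8.47 ± 0.15 (wild type; SD, n = 4), a difference of -0.11 (95% confidence interval -0.36 to 0.14). The promoter of Kcnmb1 (chr11:33962763-33963062, plus strand) holds ACAAAG, in capitals, 192 bases before the start.
Kcnmb1: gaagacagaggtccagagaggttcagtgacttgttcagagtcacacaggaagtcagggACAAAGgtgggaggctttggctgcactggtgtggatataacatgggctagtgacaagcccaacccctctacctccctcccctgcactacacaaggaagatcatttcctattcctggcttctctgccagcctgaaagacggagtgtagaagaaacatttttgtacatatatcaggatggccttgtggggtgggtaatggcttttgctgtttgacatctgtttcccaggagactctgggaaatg

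Over all 32851 RefSeq promoters of this length, 28.6% held at least 1 match to ACAAAG or ACAATG on either strand. Of the members, 28 were found in that table with 42 promoters in all, of which 9 (21.4%) held a match. Of the 5 promoters printed here, 3 held one. A match is a description of the letters only and does not mark a bound site.

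Kcnmb4 stood at 8.70, 8.71, 8.78 and 8.70 in wild-type replicates 1 to 4 and at 8.60, 8.61, 8.60 and 8.62 in Dom/Dom. The spread within each genotype was small, and 4 of 4 Dom/Dom arrays lay below the wild-type arrays, with means of 8.61 ± 0.01 and 8.72 ± 0.04 (SD, n = 4; difference -0.11, SE 0.07, limma adjusted p = 1.00; 0.358 once blocked by replicate). The antisense RNAs Kcnmb4os1 and Kcnmb4os2 differed by -0.01 and -0.06, and Kcnmb4os2, the one above the reference, had means of 8.59 ± 0.14 (Dom/Dom) and 8.65 ± 0.17 (wild type; SD, n = 4). Kcnrg, a regulator of voltage-gated channel assembly, ranged in wild type from 7.73 in replicate 1 to 8.15 in replicate 4, with 7.99 in replicate 3, and stood at 7.79, 7.78, 7.75 and 7.68 in Dom/Dom. The wild-type array of replicate 1 fell among the Dom/Dom arrays and the other 3 lay above them. The pairs differed by 0.05, -0.23, -0.25 and -0.48, a mean difference of -0.23 (SE 0.09, limma adjusted p = 0.718; 0.31 once blocked), and Kcnrg lay at or below the reference. Blocked and without replicate 1 it was -0.32 (adjusted p = 0.0455). Kcnrg did not pass in the blocked fits without replicate 2, 3 or 4 (adjusted p = 0.409, 0.767 and 0.812).

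Kcnab3, a beta subunit of voltage-gated channels, varied between replicates 1 and 2 and replicates 3 and 4 more than between genotypes; it was chosen after its values were seen. It stood at 9.02, 8.93, 8.17 and 8.22 in wild-type replicates 1 to 4 and at 8.90, 9.22, 8.19 and 8.28 in Dom/Dom. Replicates 1 and 2 were high and replicates 3 and 4 low in both genotypes, by 0.80 between the means of 4 arrays each, while the genotype means of 8.65 ± 0.49 and 8.59 ± 0.45 (SD, n = 4) differed by 0.06 (95% confidence interval -0.52 to 0.64). Of the members, 7 differed between replicates 1 and 2 and replicates 3 and 4 by at least 0.25 before rounding, and 21.5% of all genes did. Kcnq5, at -0.25 after rounding, lay just inside that limit. Kcne4, an inhibitory subunit, differed between genotypes by 0.00 (95% confidence interval -0.25 to 0.25).

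Apart from the 7 genes with the largest differences or separate genotypes, the 29 other members differed by -0.19 to 0.19. Their lowest adjusted p was 0.796 without the block, for Kcnh1, and 0.185 with it, for Kcnk9. The widest of their 95% confidence intervals, that of Kcnab3, ran from -0.52 to 0.64, so these data do not show that the members were equal in the genotypes.

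Markers of other cell types were set beside Kcnk5, Kcnt2, Kcnq5 and Kcnmb1 pair by pair. Endothelial and pericyte markers, of which 2 were measured, had a mean level of 9.32 to 9.96 in Dom/Dom against 8.81 to 9.58 in wild type. The pericyte gene Rgs5 was 0.90 higher (limma adjusted p = 0.583, or 0.00358 once blocked). Pecam1, the endothelial marker measured, differed by -0.03 and lay at or below the reference. Of the skeletal muscle precursor markers 4 were measured, 3 of them at or below the reference in wild type. Their mean level was 8.85 to 9.23 against 8.81 to 8.93. The one above the reference, Pax3, is also among the neural crest markers and differed by 0.05. The 3 others, Myf5, Myog and Myf6, differed by 0.60, 0.44 and -0.03. In Dom/Dom they averaged 8.07, 8.31 and 7.62, where the 95th percentile of the olfactory receptor genes was 8.22. Neuronal markers, 9 measured and 0 at or below the reference, had a mean level of 9.84 to 10.36 against 10.08 to 10.58; 1 fell with the block, Pou4f1. Blood markers, 3 measured with Ptprc at or below the reference, had a mean level of 9.13 to 9.74 against 9.39 to 9.90. Epithelial markers, 2 measured, had one of 11.55 to 11.89 against 11.71 to 12.39, and Krt8 fell with the block. The part of these cells in the levels of Kcnt2 and Kcnq5 was not tested.

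**Figure D4:**
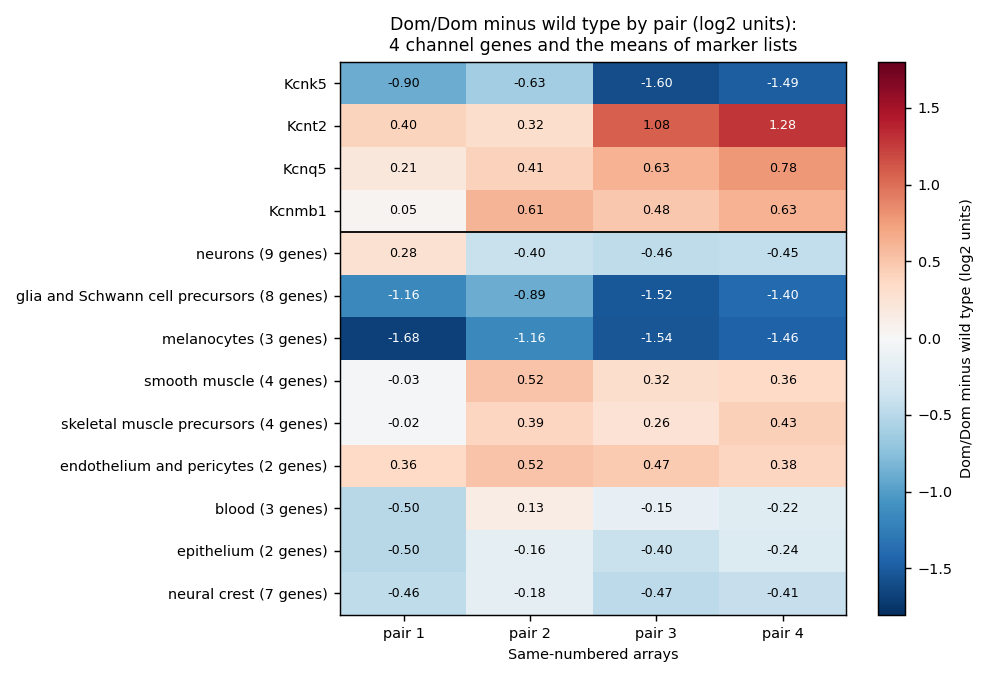
Dom/Dom minus wild type in each same-numbered pair of arrays (columns), in log2 units by colour and number, for 4 potassium channel genes and for the means of 9 lists of cell type markers (rows). Kcnk5 and the glial, melanocyte, neural crest and epithelial lists are below 0 in each pair. Kcnt2, Kcnq5 and the endothelial and pericyte list are above 0 in each. That list holds only Rgs5 (difference between genotypes 0.90) and Pecam1 (-0.03). Kcnmb1 and the smooth muscle and skeletal muscle precursor lists are near 0 in pair 1 and above 0 in the other 3.

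The other genes that move ions across the membrane or bind potassium channels were described from 7 lists, of which 23 genes were measured and the chloride channel list had none. Of these, 0 passed without the block, and with it 1 rose and 0 fell. The one that rose was Atp1b1, a subunit of the pump that builds the potassium gradient, at 11.06, 10.98, 10.93 and 11.15 in wild-type replicates 1 to 4 and at 11.45, 11.37, 11.49 and 11.66 in Dom/Dom. All Dom/Dom arrays lay above the wild-type arrays, 1.38-fold higher (difference 0.46, SE 0.09, limma adjusted p = 0.0535, or 0.0164 once blocked). Atp1b2, another beta subunit of the pump, stood at 9.87, 9.48, 9.66 and 9.67 in wild type and 9.23, 9.44, 9.27 and 9.43 in Dom/Dom. It lay lower in all Dom/Dom arrays, by a difference of -0.33 (adjusted p = 0.311, or 0.188 blocked). The 23 genes had a median difference of -0.02, with 6 above 0 and 17 below. Calcium channel genes, 11 measured, had a median of -0.02, and the sodium channel Scn8a differed by -0.13. The calcium channel gene Cacna1d, at or below the reference, also lay lower in all Dom/Dom arrays. Its difference was -0.18 (limma adjusted p = 0.712, or 0.206 blocked). Genotypes without overlap were found for 3.78% of all genes tested. Cntn2, an axonal protein that holds potassium channels in place, differed by -0.37 (adjusted p = 0.512 with the block).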

How the data were processed

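Mouse Gene 1.0 ST arrays of 4 Dom/Dom and 4 wild-type samples were used, grouped by the sample titles. The authors deposited 1 log2 level for each probe set, made with RMA and Partek per the submitters' processing notes. Their versions are not given in the sources used here. Such values understate differences of dim probe sets, and no detection calls were used here. Of 16381 probe sets, the 7416 with 1 gene symbol gave 6855 genes (brightest probe set per gene), and 6829 were matched to RefSeq GRCm38.p6 for symbols, neighbours and promoters.

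The test of genotype was that of limma 3.58.1 (R 4.3.3, two-sided, with eBayes, Benjamini-Hochberg over 6855 genes, threshold 0.05). Confidence intervals are at 95% and unadjusted. Same-numbered arrays of the genotypes deviated together (correlations 0.47, 0.58, 0.61 and 0.67, each above 0.1). They were treated as pairs on that basis alone, without a label that says so. Differently numbered arrays within replicates 1 and 2 and within 3 and 4 also correlated (0.11 to 0.38). The members, lists and tests were chosen with earlier results of these data known. Members are all accounted for; those with separate genotypes, a call or 1 of the 6 largest differences are described array by array, and others described so were chosen after their values were seen. Checked on simulated arrays, the fit called 99 of 100 genes changed by 1 log2 unit, 100 of 100 changed by 2, and 9 of 6655 unchanged. The simulated noise was independent between arrays, unlike the shared replicate deviations above, so these counts may not hold for the real arrays. On the real arrays Kcnk5, at -1.15, did not pass in this fit (limma adjusted p = 0.14). Alternatives were the replicate block, arrays or pairs left out, a filter on low values, quantile normalization, mean probe sets, all probe sets, array weights and an intensity trend.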

Additional observations from a re-analysis of the deposited data

Results flagged for a closer look

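Each member's 4 arrays per genotype, and the members' median, were searched for a single array far from the other 3. Of 74 such sets, 1 held one, where chance gives about 4 (1 in 20). Kcnj9 was low in wild-type replicate 4, at 7.82 log2 units against 7.89 to 7.90 in the other wild-type arrays.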

How the results depend on the processing

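Without the replicate block 0 of the 36 genes passed, and the replicate block gave 1 (Kcnk5) and 103 genes in all against 33. Leaving out each array in turn gave 0 to 1 members, 10 to 51 genes in all and a median member difference of -0.05 to 0.03. The blocked fits without 1 pair gave 7, 1, 0 and 0 members without replicates 1, 2, 3 and 4, and 475, 112, 15 and 13 genes in all. The 7 were Kcnk5, Kcnmb1, Kcnq5, Kcnt2, Kcnrg, Kcnh1 and Kcnk10. Array weights gave 3 members (Kcnk5, Kcnq5 and Kcnt2) and 190 genes, and all probe sets tested gave 0 members and 4 probe sets. Chosen after seeing the data, a block for replicates 1 and 2 against 3 and 4 gave the same 3 members and 116 genes, the fit within replicates 1 and 2 gave 0 and 4, and that within replicates 3 and 4 gave 4 and 352. The cause of these changes was not tested. The filter on low values, which kept 29 members, quantile normalization, mean probe sets and the intensity trend gave 0 members.

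Across 22 alternatives the differences of Kcnk5, Kcnt2, Kcnq5 and Kcnmb1 kept their sign, from -1.54 to -0.77, 0.36 to 1.18, 0.31 to 0.70 and 0.33 to 0.58, and passed in 6, 4, 5 and 2 of them. Kcnf1, Kcnmb4 and Kcnrg also kept their sign and passed in 0, 0 and 1. The alternatives reuse the same arrays and are not independent of each other. They include the fits chosen after seeing the data, which hold some of the passes of Kcnk5, Kcnt2, Kcnq5 and Kcnmb1. No detection calls were used, so for the 19 dim members a change could not be told from background. The number of arrays limits the precision.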
